A study of Mus musculus with 9 samples.

Results

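The genes described here are 49 cytokines, chemokines, cytokine receptors and inflammation-induced secreted proteins of the mouse, listed by name with earlier results of these data known. They comprise 38 ligands, 8 receptors and 3 induced secreted proteins (Ptx3, Lcn2 and Saa3). A gene was measured where the array's annotation gave a probe-set row that single symbol, and the row with the highest mean over the 9 arrays stood for it. By this rule 47 of the 49 genes were measured, of 19938 genes in all: all 38 ligands, 6 of the 8 receptors and all 3 induced secreted proteins. Il1r1 and Il1rl1, the receptors of interleukin-1 and interleukin-33, are not analysed here. Ccl25 alone among the measured members had more than 1 row.

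The study asked whether adult somatic cells return to a pluripotent state after a protein-based treatment, and it compared 3 kinds of mouse cells, all labelled strain C57BL/6. The first were cardiac fibroblasts after dedifferentiation, the second C57 embryonic stem (ES) cells, and the third adult cardiac fibroblasts, with 3 samples of each and 1 Affymetrix Mouse Gene 1.0 ST array per sample. The labels give no clone, passage, culture medium or age in numbers, and do not name the proteins used. The fibroblast samples carry a source label that also names ES cells, and the groups follow the sample titles. The labels are silent on whether a group's replicates were grown or taken separately, so the p-values reflect the spread among these samples alone, and that spread may be technical.

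Cytokines and chemokines are secreted or membrane-bound signals of inflammation. Chemokines attract leukocytes through G-protein-coupled receptors, and most interleukins act through paired receptor chains. Fibroblasts of the heart and other organs are known as a source of such signals, many of which are switched on through the transcription factors NF-kappaB and AP-1, while the IL-6 family shares the receptor chain gp130, through which LIF maintains mouse ES cells in culture.

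The values are log2 expression values, so a difference of 1 is a doubling, and each gene was compared only with itself across arrays. The median value of an array lay between 4.65 and 4.86, and no pair of arrays held identical values. Arrays correlated at 0.9931 to 0.9946 among dedifferentiated cells, 0.9875 to 0.9923 among ES cells and 0.9907 to 0.9942 among fibroblasts, and at 0.9151 to 0.9234 between dedifferentiated cells and fibroblasts. All 12 ES cell markers listed were higher in dedifferentiated cells and in ES cells than in fibroblasts, and all 13 fibroblast markers were lower. Sex-linked genes separated the groups in the same way: Xist, expressed from an inactive X chromosome, averaged 3.25 ± 0.21 in dedifferentiated cells, 3.15 ± 0.32 in ES cells and 7.31 ± 0.07 in fibroblasts (log2 mean ± SD, n = 3 each). The Y-linked Eif2s3y averaged 8.09 ± 0.12 in dedifferentiated cells, 7.76 ± 0.25 in ES cells and 3.55 ± 0.12 in fibroblasts (n = 3 each). Eif2s3y was thus high and Xist low in dedifferentiated and ES cells, and the reverse held in the fibroblast arrays. These fibroblast samples are therefore not shown to be the cells that were treated. Differences below are between samples and are not changes followed in the same cells. The part of sex in them cannot be told apart from the treatment.

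Ligands such as Il6, Cxcl5 and Csf1, every measured receptor and the induced secreted proteins were lower in dedifferentiated cells than in fibroblasts, and nearly the same genes were lower in ES cells. Of the 47 genes, 25 were lower and 1 was higher in dedifferentiated cells than in fibroblasts, while 10.1% of all genes tested were lower and 8.79% higher. A gene was called at a Benjamini-Hochberg adjusted p under 0.05 in limma, over all genes, with a difference of at least 1 log2 unit. In ES cells 26 of the 47 were lower than in fibroblasts and 0 higher, against 10.4% lower and 8.85% higher of all genes (26 of the 47, in either direction, also had an unadjusted p under 0.05 with at least 1 log2 unit). The median difference over the members was -1.21 log2 units for dedifferentiated cells, against 0.01 over all genes. For ES cells it was -1.42, against 0.02 over all genes. Both comparisons use the same 3 fibroblast arrays. In all, 24 genes were lower in both, and for each of the 24 the 3 dedifferentiated arrays lay below the 3 fibroblast arrays. A call needs a difference that is large beside the spread, so this separation follows largely from the calls and adds no support to them.

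**Figure D1:**
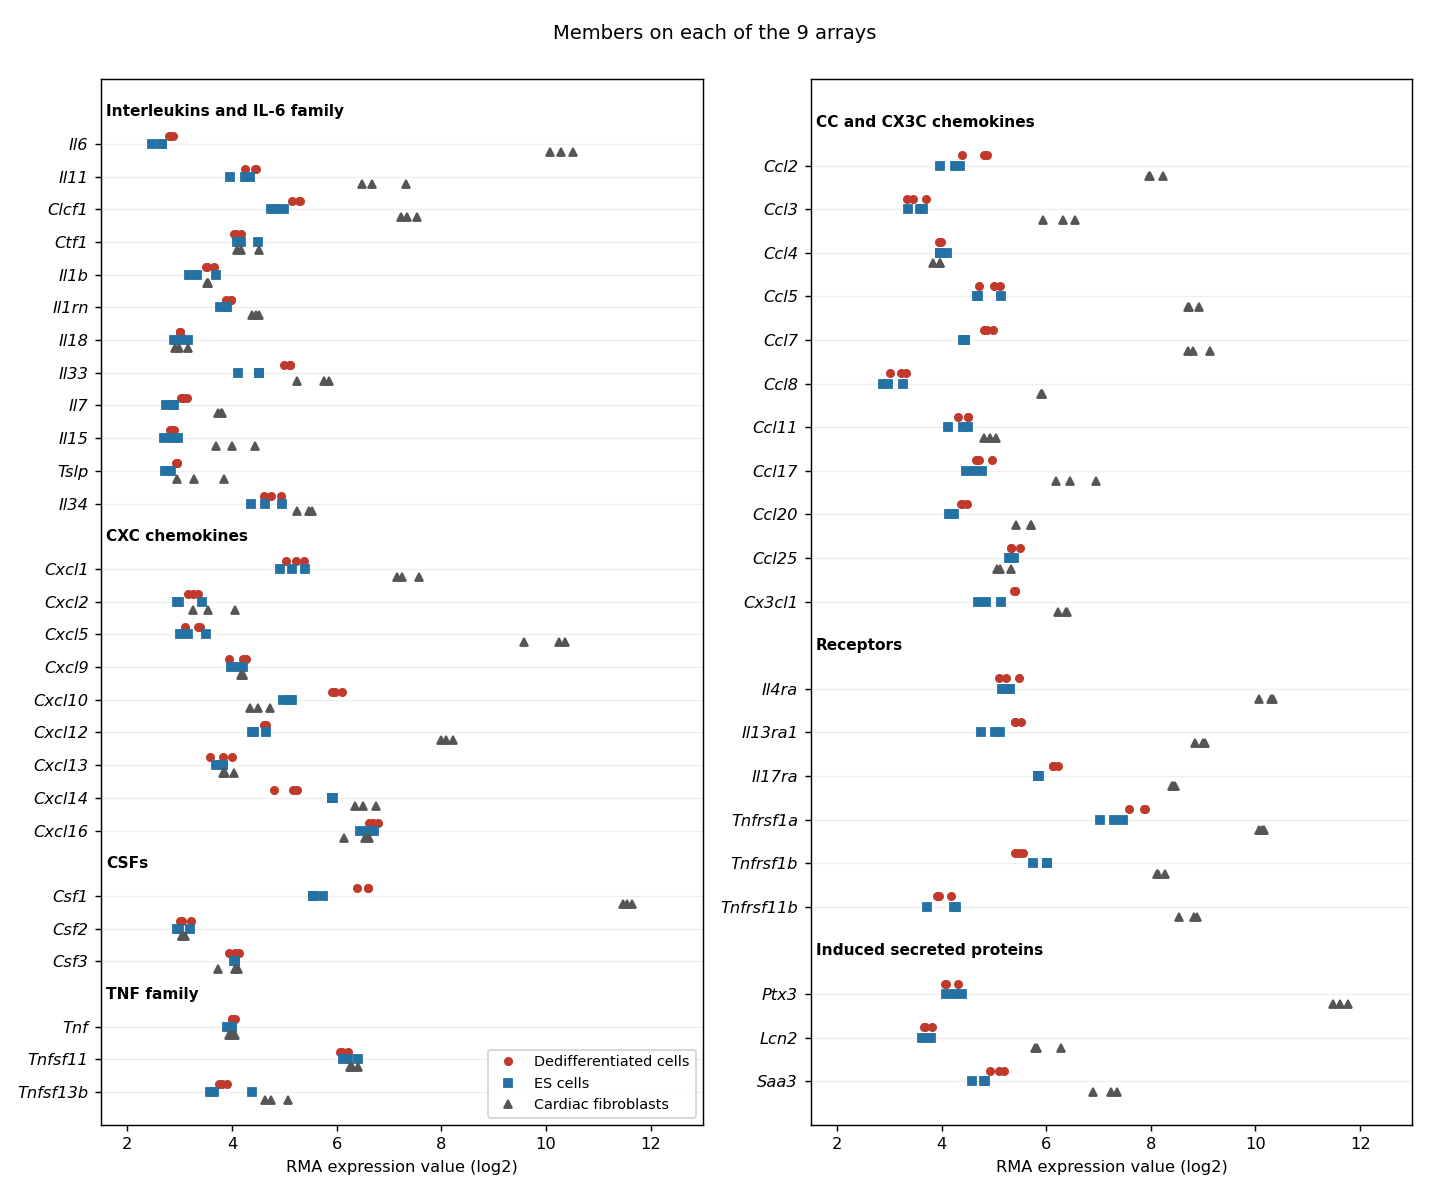
Log2 expression value of each measured member on each of the 9 arrays, with genes down the page by role (axis: log2 expression value) and the dedifferentiated, ES and fibroblast arrays as separate symbols; values are to be compared within a gene only. For Il6 the dedifferentiated arrays lie at 2.80 to 2.87 and the fibroblast arrays at 10.07 to 10.52, and all 6 receptors have their fibroblast arrays to the right of the other arrays.

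The roles differed in how many of their genes were called. All 6 measured receptors and all 3 induced secreted proteins were lower in dedifferentiated cells than in fibroblasts, but 16 of the 38 ligands were, with 1 ligand higher and 21 not called. The median difference was -3.10 log2 units over the receptors and -2.24 over the secreted proteins, and -0.68 over the ligands. In ES cells the median was -3.42 over the receptors, -2.42 over the secreted proteins and -0.85 over the ligands. The values carry no detection call, so a low value is not shown to be a signal above background. Differences and folds below are those of the array values. Where the lower group's values are low, the size of the difference in RNA is not known from them. This holds for Il6, Cxcl5, Ptx3, Tnfrsf11b, Cxcl12, Ccl7 and Ccl2, among others. A mean of at least 6 in some group was reached by 24 of the 47 members, by 19 of them only in the fibroblasts, and by 9606 of the 19938 genes. By role, 16 of the 38 ligands and all 6 measured receptors reached it. The part of signal level in the difference between roles was not tested.

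Promoter sequences are shown for 5 members, 4 that hold a searched motif and Ptx3, which holds none, chosen after values and matches had been seen. They are the 250 bases before the RefSeq start of the gene (GRCm38.p6), written 5' to 3' on the gene's own strand. They lie at chr5:30012864-30013113 (plus strand) for Il6, chr5:90890995-90891244 (plus) for Cxcl1, chr3:107760470-107760719 (minus) for Csf1, chr5:92348890-92349139 (minus) for Cxcl10 and chr3:66219637-66219886 (plus) for Ptx3. Capitals mark matches to the NF-kappaB consensus, the AP-1 site TGANTCA or the interferon-response core GAAANNGAA, each searched on both strands.
Il6: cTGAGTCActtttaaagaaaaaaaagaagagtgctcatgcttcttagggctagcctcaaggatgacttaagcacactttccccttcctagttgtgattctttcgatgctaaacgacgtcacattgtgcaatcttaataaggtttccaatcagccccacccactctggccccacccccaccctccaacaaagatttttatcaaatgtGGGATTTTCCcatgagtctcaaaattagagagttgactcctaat
Cxcl1: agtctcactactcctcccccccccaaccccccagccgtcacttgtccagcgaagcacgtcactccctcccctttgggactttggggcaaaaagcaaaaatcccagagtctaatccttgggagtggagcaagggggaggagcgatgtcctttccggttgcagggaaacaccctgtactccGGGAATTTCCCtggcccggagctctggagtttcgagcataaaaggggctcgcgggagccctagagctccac
Csf1: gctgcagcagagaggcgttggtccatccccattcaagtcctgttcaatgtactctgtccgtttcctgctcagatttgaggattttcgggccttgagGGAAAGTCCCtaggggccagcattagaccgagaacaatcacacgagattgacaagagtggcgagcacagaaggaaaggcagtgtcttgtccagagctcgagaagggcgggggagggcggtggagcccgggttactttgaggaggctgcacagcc
Cxcl10: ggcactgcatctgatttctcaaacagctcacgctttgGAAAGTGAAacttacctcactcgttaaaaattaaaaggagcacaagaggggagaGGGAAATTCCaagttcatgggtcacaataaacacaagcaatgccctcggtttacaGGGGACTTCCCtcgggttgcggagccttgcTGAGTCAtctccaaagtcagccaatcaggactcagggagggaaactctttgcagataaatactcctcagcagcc
Ptx3: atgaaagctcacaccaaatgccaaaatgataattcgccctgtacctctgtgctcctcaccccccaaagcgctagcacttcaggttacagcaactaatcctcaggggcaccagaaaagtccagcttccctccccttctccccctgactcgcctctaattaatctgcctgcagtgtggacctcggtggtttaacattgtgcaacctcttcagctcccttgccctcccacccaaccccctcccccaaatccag
The NF-kappaB match of Il6 starts 44 bases before the gene's start and its AP-1 match 249 bases before it. In Cxcl1 a pair of overlapping NF-kappaB matches starts at -71 and -70, and in Csf1 the match starts at -154. Cxcl10 holds all 3 motifs, with NF-kappaB matches at -159, -104 and -103 (the last of these overlap), AP-1 at -74 and the interferon-response core at -213. A window was given for 32 of the 47 members. A member was counted if any of its windows held the motif, whereas the percentages below are over single windows, so their units differ. The NF-kappaB consensus was in 6 of these 32 (Ccl20, Csf1, Cxcl1, Cxcl10, Cxcl2 and Il6) and in 7.25% of all 32817 promoter windows. It was in 4 of the 17 members with a window that were lower in dedifferentiated cells than in fibroblasts, and in 1 of the 14 that were not called. TGANTCA was in 5 of the 32 and in 6.75% of all windows, and GAAANNGAA in 8 of the 32 and in 7.12%. A match only describes these letters.

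Among the interleukins and the IL-6 family, 4 of 12 were lower in dedifferentiated cells than in fibroblasts and 5 of 12 in ES cells, and none was higher. Il6, the leading cytokine of the acute-phase response, had values of 2.87, 2.82 and 2.80 on the dedifferentiated arrays and 2.66, 2.67 and 2.47 on the ES arrays, against 10.52, 10.07 and 10.29 on the fibroblast arrays. The fibroblasts were high on all 3 arrays and overlapped neither of the other groups. Il6 was lower than in fibroblasts, at -7.46 log2 units in dedifferentiated cells (95% interval of the array values -7.70 to -7.22, limma adjusted p = 1.5e-12) and -7.70 in ES cells (adjusted p = 8.3e-13). Its promoter, printed above, holds NF-kappaB and AP-1 letters.

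Both other called members of the IL-6 family were lower as well. Il11, a gp130 cytokine made by fibroblasts, had 4.47, 4.25 and 4.44 in dedifferentiated cells and 4.35, 4.24 and 3.97 in ES cells, against 7.32, 6.68 and 6.49 in fibroblasts. It differed from fibroblasts by -2.44 log2 units (95% interval -2.85 to -2.04, adjusted p = 4e-07) in dedifferentiated cells and by -2.64 in ES cells. Clcf1, a ligand of the CNTF receptor, had 5.14, 5.28 and 5.31 in dedifferentiated cells, 4.99, 4.85 and 4.75 in ES cells and 7.54, 7.23 and 7.34 in fibroblasts. These are differences of -2.12 (adjusted p = 7e-09) for dedifferentiated cells and -2.51 for ES cells. For both genes the fibroblast arrays lay above all others without overlap. Ctf1, cardiotrophin-1, which acts on heart muscle through gp130, differed by -0.16 (adjusted p = 0.35) and its arrays overlapped.

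Of the lymphocyte-supporting cytokines, Il15, which sustains natural killer and memory T cells, was lower. Its values were 2.82, 2.89 and 2.85 in dedifferentiated cells and 2.97, 2.88 and 2.70 in ES cells, against 4.44, 3.70 and 4.01 in fibroblasts, a difference of -1.20 for both (adjusted p = 3.5e-05 each). All values of Il15 were low, and the groups did not overlap with the fibroblasts. Il7, a growth factor of lymphocyte precursors, differed by -0.70 in dedifferentiated cells and -0.94 in ES cells, below the size for a call. Tslp, which acts on dendritic cells, differed by -0.41 (adjusted p = 0.074) in dedifferentiated cells and -0.56 in ES cells. Of the interleukin-1 family Il1b, its inflammatory prototype, differed by 0.02 and Il18 by -0.02 between dedifferentiated cells and fibroblasts, both with overlapping arrays. The receptor antagonist Il1rn had a difference of -0.50 (adjusted p = 0.00013) and Il34, a second ligand of the CSF-1 receptor, -0.66 (adjusted p = 0.0028), both under 1 log2 unit.

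Il33, an alarmin of the interleukin-1 family held in the nucleus of stromal cells, was called only in ES cells. It had 5.10, 5.10 and 5.00 in dedifferentiated cells and 4.11, 4.51 and 4.51 in ES cells, against 5.75, 5.25 and 5.86 in fibroblasts. The dedifferentiated arrays thus lay between the ES and the fibroblast arrays with no overlap. The difference from fibroblasts was -0.55 (adjusted p = 0.011) in dedifferentiated cells and -1.24 (adjusted p = 3.1e-05) in ES cells.

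The CXC chemokines held the only member called higher than in fibroblasts. Of 9, 4 were lower and 1 was higher in dedifferentiated cells than in fibroblasts. Cxcl5, a neutrophil attractant, had 3.39, 3.35 and 3.09 in dedifferentiated cells and 3.51, 3.00 and 3.16 in ES cells, against 10.25, 9.58 and 10.37 in fibroblasts. It was lower than in fibroblasts, at -6.79 in dedifferentiated cells (95% interval -7.22 to -6.36, adjusted p = 1.1e-10) and -6.84 in ES cells, and the dedifferentiated and ES arrays overlapped each other. Cxcl12, which retains blood stem cells in marrow through the receptor Cxcr4, had 4.65, 4.63 and 4.61 in dedifferentiated cells, 4.65, 4.39 and 4.42 in ES cells and 8.23, 7.99 and 8.10 in fibroblasts. It was lower than in fibroblasts, at -3.48 in dedifferentiated cells (95% interval -3.68 to -3.27, adjusted p = 6.2e-11) and -3.62 in ES cells. Here too only the fibroblast arrays stood apart.

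Cxcl1, another neutrophil attractant, had 5.04, 5.22 and 5.37 in dedifferentiated cells and 5.39, 4.91 and 5.15 in ES cells, against 7.24, 7.58 and 7.16 in fibroblasts. It was lower than in fibroblasts by 4.33-fold in dedifferentiated cells and 4.51-fold in ES cells (adjusted p = 1.6e-07 and 1.3e-07). Its close relative Cxcl2 differed by -0.36 in dedifferentiated cells (95% interval -0.77 to 0.04, adjusted p = 0.14), with overlapping arrays. Cxcl9 and Cxcl13, which attract activated T cells and B cells, differed by -0.06 and -0.11, and Cxcl16, a transmembrane chemokine, by 0.27 (adjusted p = 0.099). All 3 overlapped across the groups.

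Cxcl14 and Cxcl10 were the CXC chemokines that separated all 3 groups. Cxcl14, a chemokine of epithelial and stromal tissue, had 5.16, 4.80 and 5.25 in dedifferentiated cells and 5.94, 5.91 and 5.91 in ES cells, against 6.76, 6.35 and 6.50 in fibroblasts. The dedifferentiated arrays were the lowest and the ES arrays lay between. It differed from fibroblasts by -1.47 log2 units (95% interval -1.75 to -1.19, adjusted p = 1.3e-06) in dedifferentiated cells. The ES cells differed by -0.62 (adjusted p = 0.0015), under the size for a call. Cxcl10, an interferon-inducible attractant of T cells, had 6.10, 5.92 and 5.97 in dedifferentiated cells and 4.97, 5.09 and 5.15 in ES cells, against 4.35, 4.49 and 4.72 in fibroblasts. It was the reverse of Cxcl14, highest in the dedifferentiated cells, with ES cells between. Cxcl10 was 2.79-fold higher in dedifferentiated cells than in fibroblasts (1.48, 95% interval 1.25 to 1.70, adjusted p = 1.8e-07), and ES cells differed by 0.55 (0.33 to 0.77, adjusted p = 0.00067).

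In the CC and CX3C group 7 of 11 were lower in dedifferentiated cells and 8 of 11 in ES cells. Ccl7, a monocyte attractant, had 4.86, 4.99 and 4.81 in dedifferentiated cells, 4.41, 4.44 and 4.44 in ES cells and 9.13, 8.71 and 8.81 in fibroblasts. It was lower than in fibroblasts, at -3.99 in dedifferentiated cells (95% interval -4.23 to -3.76, adjusted p = 5.7e-11) and -4.45 in ES cells. Ccl2, another, had 4.80, 4.40 and 4.86 in dedifferentiated cells and 4.26, 3.98 and 4.36 in ES cells, against 8.23, 7.96 and 7.99 in fibroblasts. This is a difference of -3.37 in dedifferentiated cells and -3.86 in ES cells, where the fibroblast arrays again lay apart. Both chemokines act through the receptor Ccr2.

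Ccl5 and Ccl3, which act on T cells and macrophages, were also lower. Ccl5 had 5.00, 4.72 and 5.11 in dedifferentiated cells and 4.67, 5.13 and 4.69 in ES cells, against 8.73, 8.72 and 8.92 in fibroblasts, a difference of -3.84 in dedifferentiated cells (95% interval -4.15 to -3.54, adjusted p = 7.3e-10). Ccl3 had 3.45, 3.70 and 3.34 in dedifferentiated cells and 3.65, 3.36 and 3.58 in ES cells, against 6.55, 5.94 and 6.32 in fibroblasts, a difference of -2.78 in dedifferentiated cells (adjusted p = 2.2e-08). Dedifferentiated and ES arrays overlapped for both genes. The other called members were Ccl8 (-2.72 in dedifferentiated and -2.88 in ES cells), Ccl17, which attracts Th2 cells (-1.74 in dedifferentiated and -1.89 in ES cells), and Ccl20, which attracts Th17 cells (-1.21 in dedifferentiated and -1.42 in ES cells). Cx3cl1, a membrane-bound chemokine, had 5.40, 5.40 and 5.39 in dedifferentiated cells and 4.70, 5.14 and 4.86 in ES cells, against 6.23, 6.39 and 6.39 in fibroblasts. Its difference was -0.94 in dedifferentiated cells (adjusted p = 1.3e-05), just short of a call, and -1.43 in ES cells, which was called. Ccl11, the eosinophil attractant, differed by -0.49 in dedifferentiated cells and -0.58 in ES cells, and Ccl4 and Ccl25, which differed by 0.05 and 0.22 in dedifferentiated cells, had overlapping arrays.

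**Figure D2:**
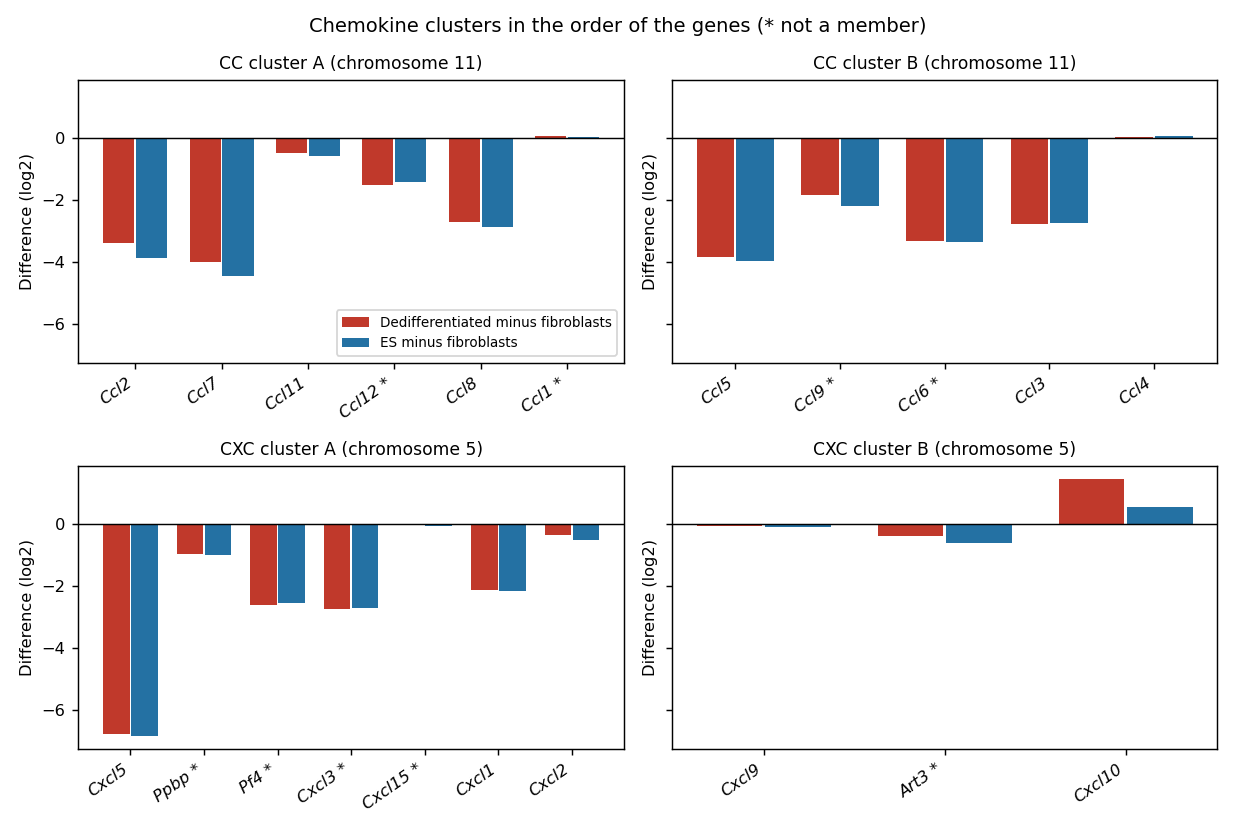
Log2 difference from fibroblasts of the dedifferentiated and ES cells for chemokine genes in the order of their chromosomal clusters in GRCm38.p6, one panel per cluster, with an asterisk at genes outside the 47. The differences change along a cluster: on chromosome 11 Ccl7 is at -3.99 in dedifferentiated cells, its neighbour Ccl11 at -0.49 and Ccl1 at 0.06.

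Many chemokine genes are neighbours, and the differences varied along their clusters. In the order of GRCm38.p6 on chromosome 11, Ccl2, Ccl7, Ccl11, Ccl12, Ccl8 and Ccl1 differed by -3.37, -3.99, -0.49, -1.50, -2.72 and 0.06 between dedifferentiated cells and fibroblasts. The end gene Ccl1 and the inner Ccl11 were not called. On the same chromosome Ccl5, Ccl9, Ccl6, Ccl3 and Ccl4 differed by -3.84, -1.83, -3.32, -2.78 and 0.05, where Ccl4 beside Ccl3 was not called. On chromosome 5 the genes Cxcl5, Ppbp, Pf4, Cxcl3, Cxcl15, Cxcl1 and Cxcl2 differed by -6.79, -0.96, -2.60, -2.73, 0.01, -2.12 and -0.36. In a separate stretch of chromosome 5, Cxcl9 differed by -0.06, Art3 by -0.37 and Cxcl10 by 1.48. Neighbours that are no members (Ccl12, Ccl1, Ccl9, Ccl6, Ppbp, Pf4, Cxcl3, Cxcl15 and Art3) were named for their position, after values had been seen.

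Of the 3 colony-stimulating factors only Csf1, the growth factor of macrophages, was called. It had 6.60, 6.39 and 6.60 in dedifferentiated cells and 5.54, 5.54 and 5.74 in ES cells, against 11.48, 11.55 and 11.64 in fibroblasts. The 3 groups did not overlap, with fibroblasts far above the rest and dedifferentiated cells above ES cells. Csf1 was 32.6-fold lower in dedifferentiated cells (-5.03, 95% interval -5.23 to -4.83, adjusted p = 4.6e-12) and 61.7-fold lower in ES cells (-5.95, adjusted p = 1.3e-12). Csf2 and Csf3, the growth factors of granulocytes and macrophages, differed by 0.02 and 0.08 between dedifferentiated cells and fibroblasts, with overlapping arrays.

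No member of the TNF family was called: 0 of 3 in dedifferentiated and 0 of 3 in ES cells. Tnf, the main inflammatory cytokine of macrophages, differed by 0.02 in dedifferentiated cells (95% interval -0.13 to 0.18) and -0.03 in ES cells. Tnfsf11, the osteoclast factor RANKL, differed by -0.18 in dedifferentiated cells. Tnfsf13b, a survival factor of B cells, came closest, at -0.98 in dedifferentiated cells (adjusted p = 0.00084) and -0.93 in ES cells, without overlap of the dedifferentiated and fibroblast arrays. Its call rests on the setting: without fibroblast replicate 1 the difference was -1.08 in dedifferentiated cells and passed.

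**Figure D3:**
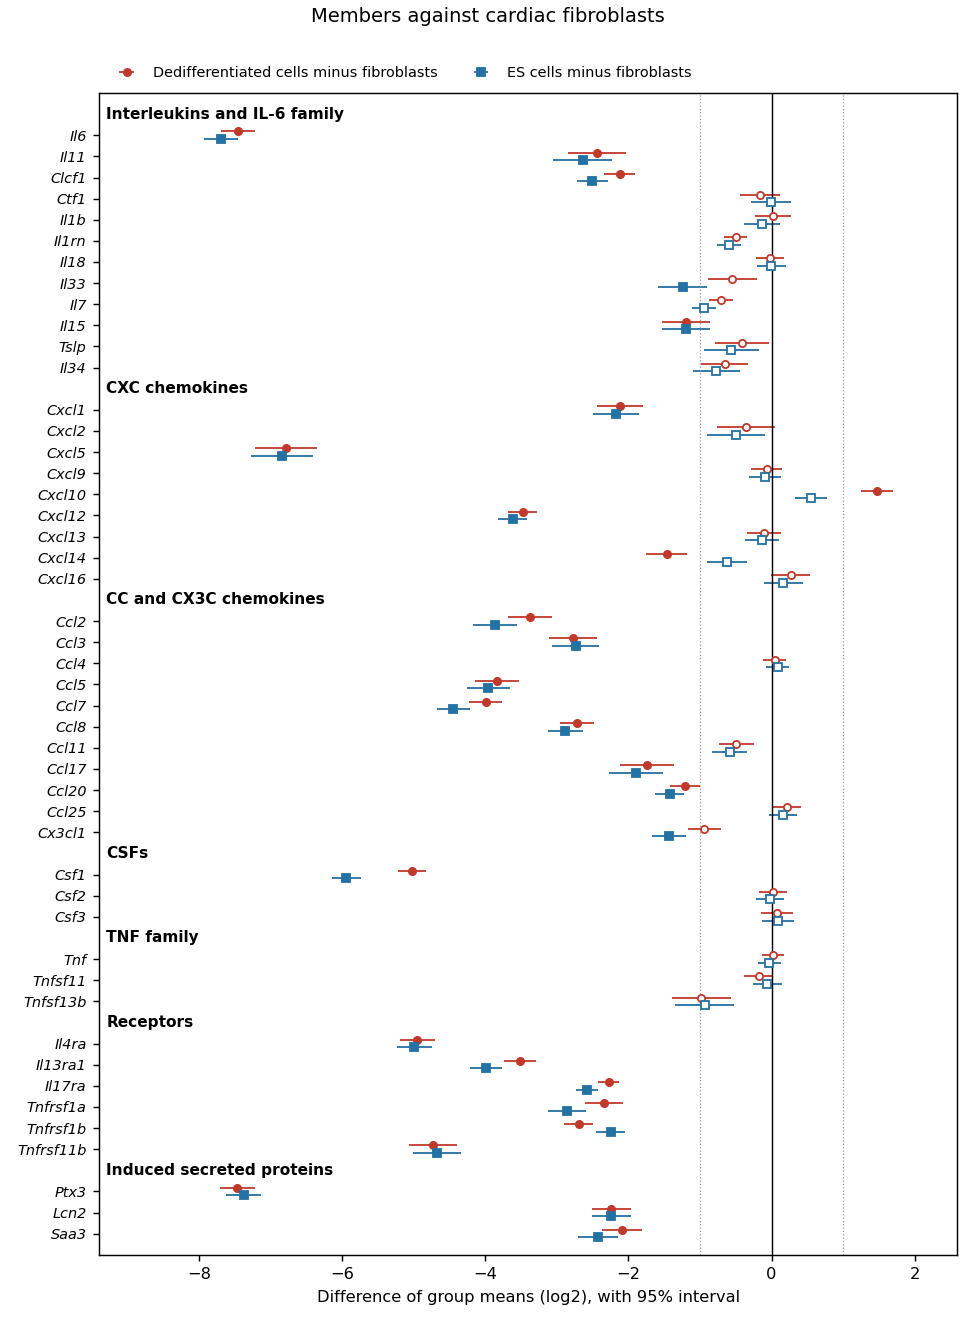
Log2 difference from fibroblasts of each measured member in dedifferentiated cells and in ES cells, with 95% intervals from the fit; filled symbols are called, open ones are not, and dotted lines mark 1 log2 unit in each direction. Of the 47 members 25 lie below the lower line as called in dedifferentiated cells and 26 in ES cells, and Cxcl10 is the one called above.

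Among the receptors, Il4ra is the signalling chain for interleukin-4 and interleukin-13. Its values were 5.24, 5.10 and 5.49 in dedifferentiated cells and 5.16, 5.31 and 5.23 in ES cells, against 10.06, 10.33 and 10.30 in fibroblasts. It was 31.0-fold lower in dedifferentiated cells (-4.96, 95% interval -5.20 to -4.71, adjusted p = 1.6e-11) and 31.9-fold lower in ES cells, whose arrays overlapped those of dedifferentiated cells. Il13ra1, which pairs with Il4ra, had 5.41, 5.51 and 5.41 in dedifferentiated cells and 4.76, 5.03 and 5.11 in ES cells, against 8.99, 8.84 and 9.04 in fibroblasts. The difference was -3.51 in dedifferentiated cells (adjusted p = 1.1e-10) and -3.99 in ES cells, with no overlap among the 3 groups.

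Tnfrsf11b, the secreted decoy osteoprotegerin, had 4.18, 3.96 and 3.91 in dedifferentiated cells and 4.28, 4.23 and 3.72 in ES cells, against 8.83, 8.54 and 8.89 in fibroblasts. It was lower than in fibroblasts, at -4.73 in dedifferentiated cells (95% interval -5.07 to -4.40, adjusted p = 2.7e-10) and -4.67 in ES cells. Its ligand Tnfsf11 was not called. Tnfrsf1b, a TNF receptor mostly of immune cells, had 5.48, 5.55 and 5.41 in dedifferentiated cells and 5.75, 6.01 and 6.01 in ES cells, against 8.27, 8.12 and 8.13 in fibroblasts. Here the dedifferentiated arrays were the lowest, at -2.69 (adjusted p = 4.6e-10) against fibroblasts, and ES cells were at -2.25. Tnfrsf1a, the widely expressed TNF receptor, differed by -2.34 in dedifferentiated cells and -2.86 in ES cells, and Il17ra, a chain of the interleukin-17 receptor, by -2.28 in dedifferentiated cells and -2.58 in ES cells.

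The induced secreted proteins were lower throughout. Ptx3, a soluble pattern-recognition protein made by stromal cells, had 4.07, 4.09 and 4.32 in dedifferentiated cells and 4.25, 4.40 and 4.08 in ES cells, against 11.78, 11.48 and 11.62 in fibroblasts. It was lower than in fibroblasts, at -7.47 in dedifferentiated cells (95% interval -7.71 to -7.23, adjusted p = 1.6e-12) and -7.38 in ES cells. The dedifferentiated and ES arrays overlapped each other. Lcn2, an iron-siderophore binding protein, had 3.69, 3.66 and 3.82 in dedifferentiated cells and 3.75, 3.80 and 3.63 in ES cells, against 5.78, 6.28 and 5.83 in fibroblasts, a difference of -2.24 for both. Saa3, an acute-phase protein of the mouse, had 4.93, 5.19 and 5.10 in dedifferentiated cells and 4.83, 4.82 and 4.57 in ES cells, against 7.24, 6.89 and 7.35 in fibroblasts. Its difference was -2.09 in dedifferentiated cells and -2.42 in ES cells. For all 3 proteins the fibroblast arrays lay above the rest.

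Of 39 partner receptors outside the members, 35 were measured, of which 3 were lower and 1 was higher in dedifferentiated cells than in fibroblasts (median -0.03), where 10.1% of all genes were lower and 8.79% higher. The 3 were Il1rap, Il6st and Il17rc. Il1rap, the shared co-receptor of the interleukin-1 family, differed by -5.57 in dedifferentiated cells, Il6st, which encodes gp130, by -3.08 and Il17rc, a chain of the interleukin-17 receptor, by -1.30. Lifr, the LIF receptor, was higher by 2.63 in dedifferentiated cells and 1.89 in ES cells. Cntfr, a receptor chain for Clcf1, was called higher in ES cells (1.18, adjusted p = 2e-05), differed by 0.06 in dedifferentiated cells and was lower in dedifferentiated cells than in ES cells (-1.12, adjusted p = 0.00026). Lif, the ligand of Lifr and outside the members, differed by -2.99 in dedifferentiated and -3.37 in ES cells. Cxcr4, the receptor of Cxcl12, differed by -0.03, and Csf1r, that of Csf1, by -0.57 (adjusted p = 0.00027), so neither was called while its ligand was.

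Of 26 listed genes of the NF-kappaB pathway 22 were measured, and 3 were lower in dedifferentiated cells than in fibroblasts (Nfkbiz at -2.23, Myd88 at -1.54 and Ikbkg at -1.08) and 2 in ES cells, against 10.1% and 10.4% of all genes. The median was -0.40 in dedifferentiated cells and -0.47 in ES cells. At an adjusted p under 0.05 with a difference of any size, 15 of the 22 passed in dedifferentiated cells and 17 in ES cells. They were 13 lower and 2 higher in dedifferentiated cells, and 14 lower and 3 higher in ES cells. Of all 19938 genes, 9445 passed this rule in dedifferentiated cells and 9773 in ES cells. Nfkbiz is an inducible regulator of NF-kappaB target genes and Myd88 the adaptor of interleukin-1 and Toll-like receptors. A separate list of 48 other cytokines had 45 measured, of which 9 were lower in each comparison with fibroblasts and 0 higher. Of all genes, 10.1% were lower and 8.79% higher in dedifferentiated cells, and 10.4% lower and 8.85% higher in ES cells. The median of the list was -0.07 in dedifferentiated cells and -0.02 in ES cells. Tnfsf18 at -4.67, Kitl, the stem cell factor, at -3.34 and Ccl6 at -3.32 in dedifferentiated cells led the list.

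**Figure D4:**
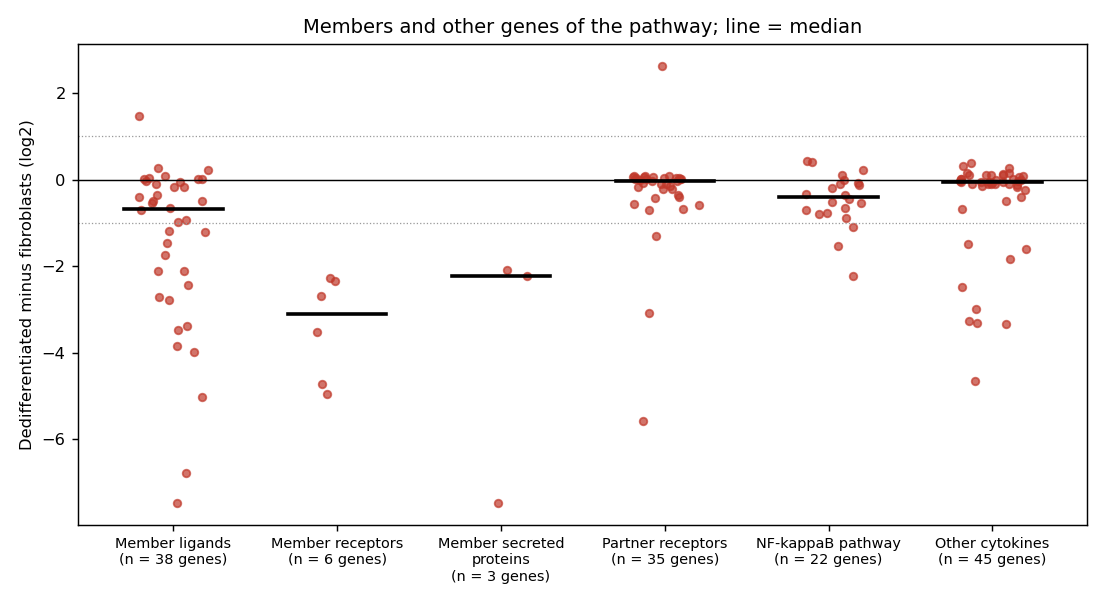
Log2 difference between dedifferentiated cells and fibroblasts for each measured gene of the member roles and of the 3 lists outside them, one column per list, with a line at each list's median. The receptors lie at a median of -3.10 and the induced secreted proteins at -2.24, while partner receptors lie at -0.03.

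Markers of leukocytes and endothelial cells also differed between these groups, in both directions. The summed linear signal of 14 leukocyte markers was 655 to 717 in dedifferentiated cells, 951 to 1050 in ES cells and 1030 to 1200 in fibroblasts. Of the 14, 5 were lower in dedifferentiated cells than in fibroblasts (Lyz2, C1qa, C1qb, C1qc and Itgam), with Lyz2, a macrophage lysozyme, at -5.65. Cd68 and Laptm5 were higher, by 1.05 and 1.02 in dedifferentiated cells and by 1.75 each in ES cells. Without Cd68 and Laptm5 the other 12 summed to 181 to 187 in dedifferentiated cells, 181 to 207 in ES cells and 789 to 933 in fibroblasts, and without Lyz2 as well to 172 to 177 in dedifferentiated cells, 171 to 197 in ES cells and 372 to 396 in fibroblasts. That of 8 endothelial markers was 550 to 580 in dedifferentiated cells, 414 to 458 in ES cells and 1530 to 1610 in fibroblasts, with 3 of the 8 higher (Pecam1, Cdh5 and Tek) and 2 lower (Eng and Emcn) in dedifferentiated cells than in fibroblasts. The order turns without Eng, which fibroblasts also express: the other 7 summed to 451 to 471 in dedifferentiated cells, 312 to 353 in ES cells and 222 to 257 in fibroblasts. These sums without single genes were added after the values had been seen. The 8 cardiomyocyte markers gave 291 to 298 in dedifferentiated cells, 250 to 265 in ES cells and 249 to 301 in fibroblasts, and none was called. The 13 fibroblast markers gave 2950 to 3080 in dedifferentiated cells, 1170 to 1450 in ES cells and 35000 to 38200 in fibroblasts. Ccl2, Ccl5, Csf1 and other members are made by several of these cell types, and the part of leukocytes or endothelial cells in the results was not tested. In such bulk samples, fewer cells of a type and less RNA per cell cannot be told apart.

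Between dedifferentiated cells and ES cells no member was called. With limma, 0 of 47 passed an adjusted p under 0.05 with at least 1 log2 unit, against 1.55% of all genes, and 0 passed at an unadjusted p under 0.05 with that size (15 at an unadjusted p of any size). Without the size limit 11 were higher in dedifferentiated cells and 2 lower, against 11.2% higher and 10.0% lower of all genes. This rule was added after the data had been seen. Of the 24 genes lower than fibroblasts in both, 19 had the higher mean in dedifferentiated cells and 5 in ES cells, with a median difference of 0.15 log2 units. Over all 19938 genes these counts were 9865 and 10063, with a median difference of -0.002. The 24 were picked by their calls in these same data. The 95% interval of the difference lay within 1 log2 unit for 43 of the 47 (91.5%), against 96.2% of all genes. The exceptions were Cxcl10, Csf1, Il33 and Cxcl14.

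**Figure D5:**
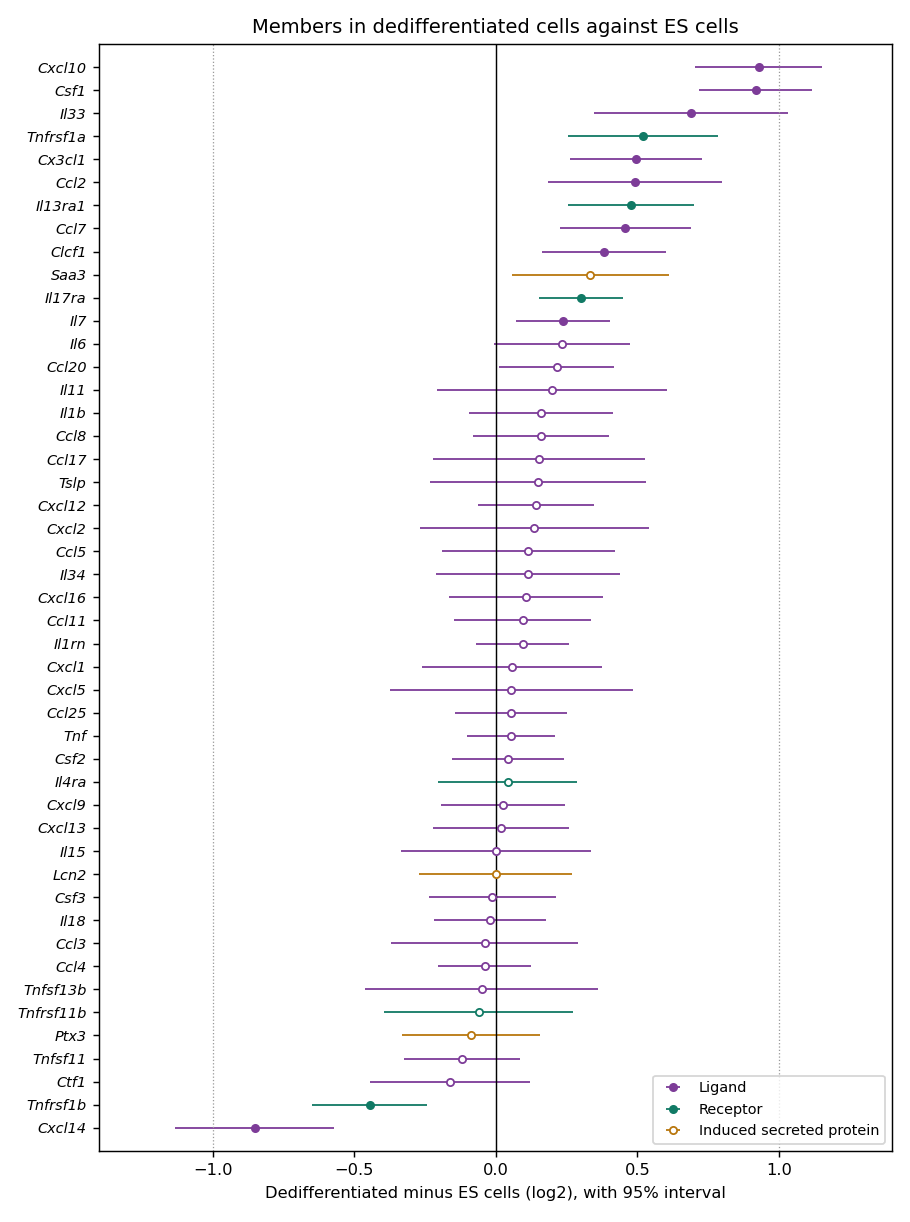
Log2 difference between dedifferentiated cells and ES cells of each measured member with its 95% interval; filled symbols have an adjusted p under 0.05, open ones do not. All points lie within 1 log2 unit, from -0.85 for Cxcl14 to 0.93 for Cxcl10.

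Cxcl10 was higher in dedifferentiated cells than in ES cells by 0.93 log2 units (95% interval 0.70 to 1.15, adjusted p = 0.00011) and Csf1 by 0.92 (0.72 to 1.12, adjusted p = 5.5e-05). The dedifferentiated arrays did not overlap the ES arrays for either gene. Il33 was higher by 0.69 (0.35 to 1.03, adjusted p = 0.0085), Cx3cl1 by 0.50 (adjusted p = 0.0065) and Ccl2 and Ccl7, the monocyte attractants, by 0.49 and 0.46 (adjusted p = 0.027 and 0.0093). Among receptors Tnfrsf1a was higher by 0.52 (adjusted p = 0.0094), Il13ra1 by 0.48 (adjusted p = 0.0058) and Il17ra by 0.30 (adjusted p = 0.0084). Clcf1 and Il7 were higher by 0.38 and 0.24 (adjusted p = 0.018 and 0.045). Cxcl14 and Tnfrsf1b were lower in dedifferentiated cells, by -0.85 (adjusted p = 0.00074) and -0.45 (adjusted p = 0.0051). Il6 differed by 0.23 (95% interval -0.01 to 0.47), Cxcl5 by 0.06 (-0.37 to 0.48), Il4ra by 0.04 (-0.20 to 0.29) and Ptx3 by -0.09 (-0.33 to 0.16) between dedifferentiated and ES cells. The summed fibroblast markers given above were also higher in dedifferentiated than in ES cells, with 3 of the 13 called higher (Vim at 1.51, Pdgfra at 1.37 and Dcn at 1.20) and 0 lower, and their part in these differences was not tested.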

How the data were processed

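RNA from 9 mouse samples was read on one-colour Affymetrix Mouse Gene 1.0 ST arrays. The deposited values are log2 expression values, and the submitters' processing notes name RMA and Affymetrix Expression Console 1.1. Because RMA includes quantile normalization over arrays, a shift shared by every transcript is invisible here. The values hold no detection call, so depth and background are not known, and 3 arrays per group limit the precision. Groups were taken from sample titles. Of 35557 rows, 21789 had 1 gene symbol in the platform annotation, 1621 several and 12147 were not listed. The brightest row was used for each of 999 genes with more than 1 row, leaving 19938 genes.

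One linear model over the 9 arrays was fitted with limma 3.58.1 under R 4.3.3, with moderated variances, and p-values were adjusted over all 19938 genes. Calls needed an adjusted p under 0.05 and at least 1 log2 unit. Gene sequences came from RefSeq (GRCm38.p6). Genes with values on every array are the 4 called members of each group (interleukins, CXC chemokines, CC and CX3C chemokines, colony-stimulating factors, TNF family, receptors, induced secreted proteins) with the largest difference between dedifferentiated cells and fibroblasts, and those called higher; Il33 and Cx3cl1 were added because the comparisons with fibroblasts differ in their calls. Outside lists are given by counts and up to 4 called genes each, and Cxcr4 and Csf1r were added as receptors of members. The members and lists were chosen with earlier results of these data known. The fit was tested on simulated data of 19938 genes: for dedifferentiated cells against fibroblasts, 66 of 67 genes changed by 1.5 log2 units were called and 66 of 66 changed by 3. Alternatives were other normalizations, filters on dim genes, other handling of rows, other variance models, the replicate number as a block, each array left out and other thresholds.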

Additional observations from a re-analysis of the deposited data

Results flagged for a closer look

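Members called against fibroblasts in only 1 of the 2 other cell types were examined for the difference between those types, tested in the same limma fit. Cxcl10, called higher in dedifferentiated cells only, differed by 0.93 log2 units between dedifferentiated and ES cells (adjusted p = 0.00011). Cxcl14, called lower in dedifferentiated cells only, differed by -0.85 (adjusted p = 0.00074). Il33 and Cx3cl1, called lower in ES cells only, differed by 0.69 (adjusted p = 0.0085) and 0.50 (adjusted p = 0.0065). All 4 differences are under 1 log2 unit, and in each the 3 dedifferentiated arrays lay on one side of the 3 ES arrays. The 4 genes were picked by unlike calls in these same data, which favours a difference between the 2 cell types. Their p-values and the separation of their arrays therefore give no support of their own.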

How the results depend on the processing

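No ligand or receptor median changed its direction under any alternative run. Nor did any member that was called in the main fit or in the alternative. For members called in neither, the direction was not compared. Between dedifferentiated cells and fibroblasts 26 members were called, and 26 to 27 with each array left out; between ES cells and fibroblasts 26, and 26 to 27. With the replicate block the counts were 26, 26 and, between dedifferentiated and ES cells, 0. The block changed no member's call. The numbers were not taken to pair the samples, since deviations from group means correlated at -0.204 to 0.25 for the same number and -0.241 to 0.324 for other numbers. Among genes above the median level, 17 members were called in each comparison with fibroblasts, because fewer genes were tested. The ligand medians were then -2.75 for dedifferentiated cells and -3.06 for ES cells. A gene's level includes its fibroblast arrays, so high fibroblast values help a member to pass. The level filter thus favours lower values in the other groups, and these larger medians give no support. Where some group's mean had to reach 6 the ligand medians were -2.61 for dedifferentiated cells and -2.69 for ES cells. Of the 24 members that pass this second filter, 19 do so only through the fibroblasts. It therefore fixes lower values in the other groups and gives the medians no support. With each array centred on its median, the median difference between dedifferentiated cells and fibroblasts was -0.80 over ligands and -3.22 over receptors; this shifts the median of all genes by -0.12, and the share of higher calls is 39.1%, against 46.6% (39.1% against 46.0% for ES cells). Between dedifferentiated and ES cells 4 members were called at 1.5-fold, and 13 with a change of any size, the rule added after the data were seen. Over single members, leaving out an array kept 1264 calls or non-calls and added 5 calls, and the other alternatives kept 1764, added 50 and lost 10. Tnfsf13b, Il7 and Cx3cl1 lay near 1 log2 unit and passed it in some settings; Tnfsf13b reached -1.08 without fibroblast replicate 1 and -1.19 (ES cells against fibroblasts) without ES replicate 1. The low signal of many ligands, with no detection call, limits what their values show.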
